A study of Homo sapiens with 12 samples.

Results

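The EGR and KLF immediate-early factors described here are 9 genes: EGR1, EGR2 and EGR3, KLF2, KLF4, KLF5, KLF6 and KLF10, and IER2. They were chosen by name and matched by symbol to the Ensembl identifiers of the count tables. All 9 were found among 40649 genes, and all 9 were among the 19268 genes with enough counts to be tested. RNA was sequenced in bulk from cultures of HK-2, an immortalised human cell line derived from the proximal tubule, in 12 libraries of 3 groups of 4. The YH libraries came from cells labelled Yap1 knockdown that received hydrogen peroxide. The H2O2 libraries came from cells labelled ShNC in genotype, the control of the knockdown, that received the same oxidant. The ShNC libraries came from cells of the ShNC genotype with the treatment label Control. The oxidant was given at 150 µM for 48 h. Cells with the knockdown and no oxidant were not analysed here, so an interaction of knockdown and oxidant was not tested. The labels name the cell line, whereas the extraction text speaks of tissue, and nothing in the labels says whether the 4 libraries of a group were grown as separate cultures. All p-values therefore reflect how far these 12 samples scattered, and that scatter may be technical.

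EGR proteins are zinc finger transcription factors that bind GC-rich DNA. Their genes are classic immediate-early genes: serum, growth factors and stress switch them on within minutes through the kinase ERK, which acts on SRF and its ELK partners, and the pulse is normally short. KLF proteins carry related zinc fingers that bind CACCC and GC boxes, and the family holds both activators and repressors. In the kidney, members of both families have been studied in tubular injury and fibrosis. After 48 h of an oxidant the libraries report a late level of these transcripts, not the first pulse.

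The start regions of EGR1, EGR2 and KLF2 are shown because they hold the letters of the best known inputs to these genes. From RefSeq (GRCh38.p14) 10 windows of 7 members were searched, each running from 250 bases before to 50 bases after an annotated start site. EGR3 and KLF10 are named only. The windows printed are chr5:138465229-138465528 (plus strand) for EGR1, chr10:62816317-62816616 (minus strand) for EGR2 and chr19:16324576-16324875 (plus strand) for KLF2. Capitals mark the CArG box bound by SRF, the cyclic AMP response motif TGACGT, the MEF2 consensus and the EGR motif GCGNGGGCG, searched on both strands.
EGR1: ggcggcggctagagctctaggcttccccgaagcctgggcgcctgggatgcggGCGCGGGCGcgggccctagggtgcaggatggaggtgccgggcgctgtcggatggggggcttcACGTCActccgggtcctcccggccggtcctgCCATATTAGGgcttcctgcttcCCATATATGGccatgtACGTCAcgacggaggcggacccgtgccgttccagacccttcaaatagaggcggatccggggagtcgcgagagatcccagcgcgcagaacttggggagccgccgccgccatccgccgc
EGR2: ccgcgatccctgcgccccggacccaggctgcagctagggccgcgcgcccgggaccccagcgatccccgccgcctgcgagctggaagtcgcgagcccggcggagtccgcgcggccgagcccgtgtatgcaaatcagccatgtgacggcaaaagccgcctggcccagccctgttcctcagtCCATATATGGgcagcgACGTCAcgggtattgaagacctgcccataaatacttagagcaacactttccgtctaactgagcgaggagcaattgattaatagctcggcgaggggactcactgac
KLF2: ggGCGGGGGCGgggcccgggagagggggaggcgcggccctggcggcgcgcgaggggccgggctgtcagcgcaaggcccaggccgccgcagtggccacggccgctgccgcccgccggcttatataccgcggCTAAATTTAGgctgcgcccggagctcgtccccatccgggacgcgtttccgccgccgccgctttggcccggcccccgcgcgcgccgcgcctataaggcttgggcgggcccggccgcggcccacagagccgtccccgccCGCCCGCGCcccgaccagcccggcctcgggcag

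In the EGR1 window the CArG box matched at -105 to -96 and at -83 to -74, counted from the start site, and TGACGT matched at -136 to -131 and at -67 to -62. The EGR2 window held a CArG box at -71 to -62 and TGACGT at -55 to -50. A CArG box was present in 1.29% of the 35116 windows of the table and TGACGT in 7.98%. The MEF2 consensus matched KLF2 at -120 to -111 and no other member that was searched, against 2.99% of all windows. MEF2 factors, activated by the kinase ERK5, are known regulators of KLF2 and KLF4. The EGR motif was found in 5 members, including EGR1 at -198 to -190 and KLF2 at -248 to -240 and at 18 to 26, against 9.43% of all windows. The GC box GGGCGG matched in 6 members and the CACCC-type motif CCNCNCCC in 7, against 45.0% and 56.2% of windows. These GC-rich motifs overlapped one another and the EGR motif at several places. The TEAD motif GGAATG, read by the partners of YAP1, matched in 1 member, EGR2, in a window not shown, against 14.0% of windows. The AP-1 motif TGANTCA and the ETS motif CCGGAAGT matched in 0 of the members searched, against 7.71% and 4.14% of windows. Of the 7 members searched, EGR2 has 3 windows, KLF5 has 2 and the other 5 have 1 each. A count of members and a share of windows are therefore not on the same footing. A match describes letters in a window only.

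Libraries held 30789997 to 46582873 counts. The lowest count of any member in any library was 94, for EGR3, whereas 3 counts, taken as the detection floor, corresponded to 0.0644 to 0.0974 CPM (counts scaled to library size). That floor reflects counting error alone. The CPM of genes were also divided by the scaling factor of each library (TMM), which ran from 0.9036 to 1.04. Mitochondrially encoded genes took 11.3% of counts in YH replicate 3 and 13.9% in ShNC replicate 4, against 4.54% to 5.64% in the other 10 libraries, and results that rest on these 2 libraries are also given without them. YAP1 transcripts, read as a check of the labels, were 131, 135, 111 and 136 CPM in YH, 155, 151, 156 and 164 CPM in H2O2 and 136, 130, 140 and 124 CPM in ShNC. The libraries labelled knockdown were lower than H2O2 (log2 fold change -0.29 ± 0.07, adjusted p = 0.00346) but not detectably different from ShNC (-0.05 ± 0.07, adjusted p = 0.636). Directions below therefore belong to the libraries labelled YH. Of 12 proximal tubule markers 8 averaged over 1 CPM. The epithelial keratins KRT8, KRT18 and KRT19, the cadherin CDH2 and the renal factor PAX8 were abundant, and PAX2 and the brush-border enzyme GGT1 were low, at 1.01 to 5.52 and 1.43 to 7.40 CPM. SLC34A1, a phosphate transporter, ran from 0.127 to 1.79 CPM, and LRP2, CUBN, ANPEP and AQP1 were at or below 0.475 CPM in every library.

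Each of the 3 comparisons was a log2 fold change from one edgeR fit to all 12 libraries, with genes called at a Benjamini-Hochberg adjusted p under 0.05 over all tested genes. They share libraries and so are not independent of each other. Values after ± are SD over 4 libraries for CPM and standard errors for log2 fold changes. In H2O2 against ShNC, 6 members were higher (EGR2, EGR3, KLF2, KLF4, KLF10 and IER2), against 23.9% of all genes called higher. KLF6 alone was lower, against 22.6% of all genes, and EGR1 and KLF5 were not called. For 7 members the 4 libraries of each group did not overlap, against 48.0% of all genes. In YH against H2O2, 4 members were lower (EGR3, KLF2, KLF10 and IER2), against 21.0% of all genes, and 2 were higher (KLF5 and KLF6), against 22.0%. Groups did not overlap for 5 members, against 45.2% of genes. In YH against ShNC, 6 members were higher (EGR2, EGR3, KLF2, KLF4, KLF5 and KLF10), against 17.4% of all genes, KLF6 was lower, against 15.1%, and groups did not overlap for 7 members, against 29.7%. Without both libraries of high mitochondrial share EGR1 and IER2 joined KLF6, so that 3 members were lower in YH than in ShNC, against 22.8% of the 19526 genes tested in that setting. The median member differed by 0.82, -0.15 and 0.93 on the log2 scale in these 3 comparisons, whereas the median of all tested genes was 0.00 in each. For every member whose groups did not overlap, exact permutation of log2 CPM over libraries gave a two-sided p = 0.0286, the smallest the 70 assignments of 8 libraries allow. That p follows from the lack of overlap and adds nothing to it. In bulk RNA, fewer cells that express a gene and less RNA per cell cannot be told apart.

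**Figure D1:**
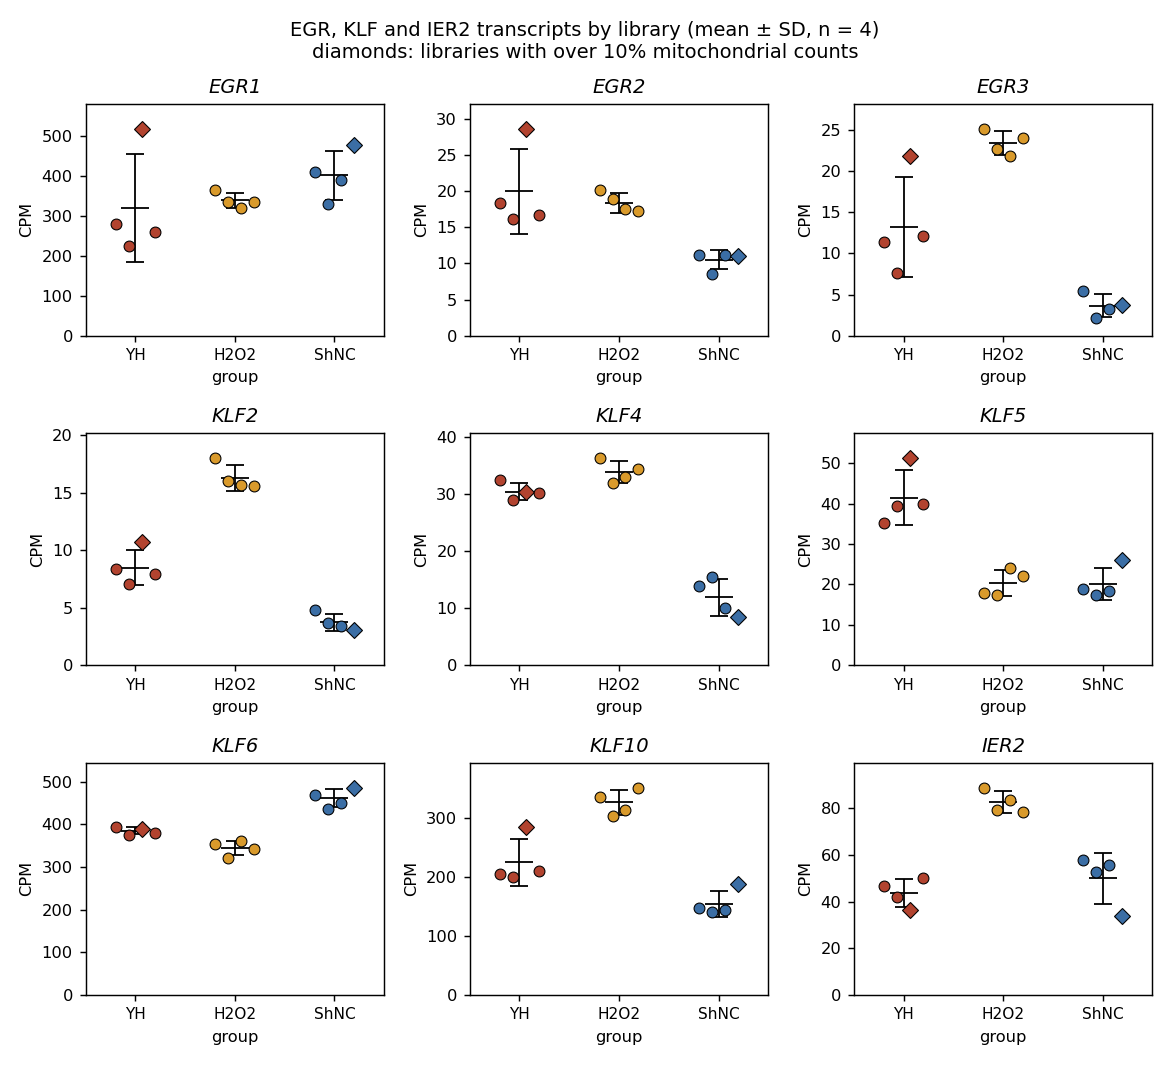
CPM of the 9 members in every library, with YH, H2O2 and ShNC from left to right. Points are libraries, bars are the mean ± SD of 4 libraries, and diamonds mark the 2 libraries with over 10% mitochondrial counts. KLF2 shows 3 separate levels, 7.08 to 10.7 CPM in YH, 15.6 to 18.0 CPM in H2O2 and 3.02 to 4.78 CPM in ShNC, whereas KLF5 is set apart in YH alone.

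EGR1 (ENSG00000120738, chromosome 5, 138465490 to 138469315, plus strand) is the founding member of its family, a rapid activator of growth, inflammatory and fibrotic genes. It had 279, 223, 518 and 258 CPM in YH, 365, 334, 320 and 334 CPM in H2O2 and 408, 328, 390 and 476 CPM in ShNC. The 3 groups overlapped, and YH replicate 3 stood far above the other YH libraries. Means were 320 ± 135 CPM in YH, 338 ± 18.8 CPM in H2O2 and 401 ± 61.0 CPM in ShNC. The log2 fold change was -0.24 ± 0.22 for H2O2 against ShNC (adjusted p = 0.387), with a 95% interval of -0.72 to 0.23. For YH against H2O2 it was -0.08 ± 0.22 (adjusted p = 0.791), with an interval of -0.56 to 0.39. For YH against ShNC it was -0.33 ± 0.22 (adjusted p = 0.287), with an interval of -0.80 to 0.15. A single library decided these calls: without YH replicate 3, EGR1 was lower in YH than in H2O2 (-0.42, adjusted p = 0.00586) and than in ShNC (-0.66, adjusted p = 0.000308). With both libraries of high mitochondrial share left out the values were -0.42 (adjusted p = 0.00903) and -0.57 (adjusted p = 0.00306).

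EGR2 (ENSG00000122877, chromosome 10, 62811996 to 62919900, minus strand), the mouse orthologue of which directs hindbrain patterning and myelination, was lower in ShNC than in either oxidant group. It had 18.4, 16.1, 28.7 and 16.7 CPM in YH, 20.2, 18.9, 17.6 and 17.2 CPM in H2O2 and 11.2, 8.48, 11.2 and 11.0 CPM in ShNC. Every library with the oxidant lay above every ShNC library. The log2 fold change was 0.82 ± 0.16 for H2O2 against ShNC (adjusted p = 0.000606) and 0.93 ± 0.16 for YH against ShNC (adjusted p = 0.000393). Between YH and H2O2 it was 0.11 ± 0.16 (adjusted p = 0.604), and without YH replicate 3 its sign turned to -0.11 (adjusted p = 0.405).

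EGR3 (ENSG00000179388, chromosome 8, 22687659 to 22693302, minus strand), needed for muscle spindle development in the mouse, made the largest move of the 9 members. It had 11.4, 7.58, 21.9 and 12.1 CPM in YH, 25.2, 22.7, 21.8 and 24.0 CPM in H2O2 and 5.44, 2.15, 3.29 and 3.73 CPM in ShNC. Both oxidant groups lay wholly above ShNC, while YH replicate 3 reached the lowest H2O2 library. It rose in H2O2 against ShNC by a log2 fold change of 2.69 ± 0.31 (adjusted p = 9.95e-06). It was also higher in YH than in ShNC (1.87 ± 0.31, adjusted p = 0.000454). YH was lower than H2O2 (-0.83 ± 0.28, adjusted p = 0.0305), a call that the exact permutation test did not reach (p = 0.0571). That call was lost with no filter on low counts (adjusted p = 0.121) and without any of 6 single libraries, YH replicates 1, 2 and 4 and H2O2 replicates 1, 2 and 4 (adjusted p from 0.0525 to 0.0765). Without YH replicate 3 the difference was larger (-1.17, adjusted p = 0.000799), as it was without both libraries of high mitochondrial share (-1.17, adjusted p = 0.00362). EGR3 was also the most variable member, with a biological coefficient of variation of 28.4% against a median of 12.7% over all tested genes.

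**Figure D2:**
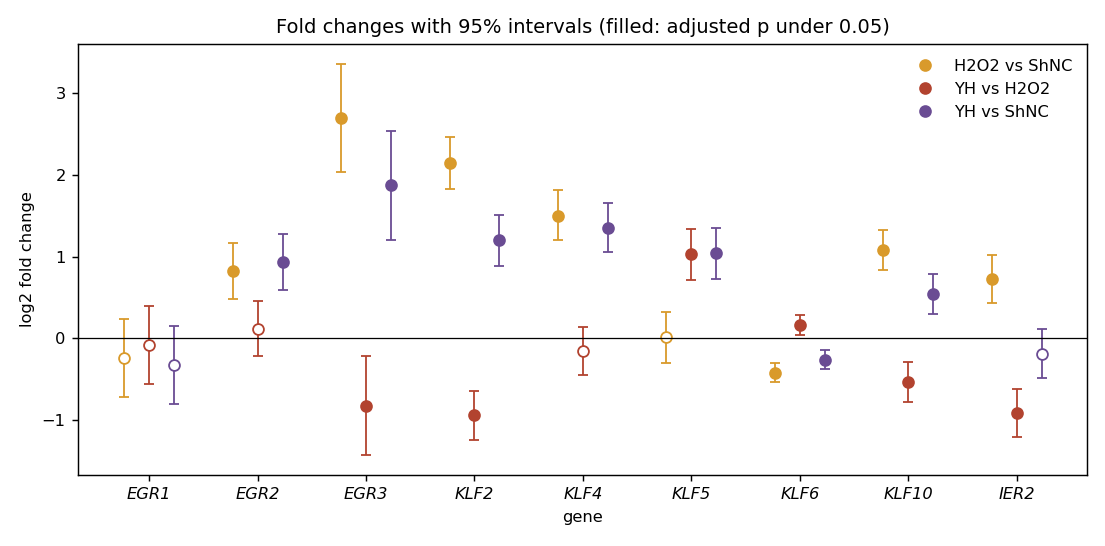
Log2 fold changes of the 9 members in the 3 comparisons, with 95% intervals from the edgeR fit; filled points passed an adjusted p of 0.05. EGR3 (2.69), KLF2 (2.14) and KLF4 (1.50) have the highest values in H2O2 against ShNC, and KLF5 (1.03) is highest in YH against H2O2.

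KLF2 (ENSG00000127528, chromosome 19, 16324817 to 16327874, plus strand), which flow induces in endothelium and which restrains inflammatory genes there, separated all 3 groups. It had 8.35, 7.08, 10.7 and 7.89 CPM in YH, 18.0, 16.0, 15.7 and 15.6 CPM in H2O2 and 4.78, 3.69, 3.37 and 3.02 CPM in ShNC. No library of one group reached another group. It was higher in H2O2 than in ShNC (2.14 ± 0.15, adjusted p = 1.01e-08), lower in YH than in H2O2 (-0.94 ± 0.14, adjusted p = 5.38e-05) and higher in YH than in ShNC (1.20 ± 0.15, adjusted p = 1.67e-05). The 50 nearest tested genes on chromosome 19 differed by a median of 0.43, -0.33 and -0.07 in these comparisons. That was in the direction of KLF2 except in YH against ShNC. With that shift removed, KLF2 still passed in all 3, at 1.71, -0.62 and 1.27. Because KLF2 is an endothelial factor, the markers of that cell type are given beside it. The summed level of 6 endothelial markers was 2.15 to 2.57 CPM in YH, 6.71 to 8.24 CPM in H2O2 and 2.29 to 2.44 CPM in ShNC. ERG was the only one over 1 CPM on average, and PECAM1, VWF, CDH5, KDR and TEK were at 0.321 CPM or less in every library.

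KLF4 (ENSG00000136826, chromosome 9, 107484852 to 107490482, minus strand), a reprogramming factor that also drives epithelial differentiation in the skin, was higher in both oxidant groups than in ShNC. It had 32.4, 28.9, 30.3 and 30.2 CPM in YH, 36.3, 31.9, 33.0 and 34.4 CPM in H2O2 and 13.8, 15.5, 10.0 and 8.49 CPM in ShNC. All 8 libraries with the oxidant lay above all ShNC libraries, and YH and H2O2 overlapped. KLF4 rose in H2O2 (1.50 ± 0.14, adjusted p = 4.26e-07) and in YH (1.35 ± 0.14, adjusted p = 3.73e-06) against ShNC. Between YH and H2O2 the difference was -0.15 ± 0.14 (adjusted p = 0.395), with a 95% interval of -0.45 to 0.14. KLF4 and KLF2, close relatives that both lie under ERK5 in endothelium, thus had different values in YH against H2O2, and the difference between the 2 genes was not tested.

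KLF5 (ENSG00000102554, chromosome 13, 73054976 to 73077542, plus strand), a factor of proliferating epithelium, was high in YH alone. It had 35.3, 39.4, 51.3 and 39.9 CPM in YH, 17.9, 17.5, 24.1 and 22.0 CPM in H2O2 and 18.9, 17.5, 18.4 and 26.1 CPM in ShNC. The lowest YH library lay above the highest of the other 8. KLF5 was higher in YH than in H2O2 (1.03 ± 0.15, adjusted p = 4.49e-05) and than in ShNC (1.04 ± 0.15, adjusted p = 7.11e-05). In H2O2 against ShNC it differed by 0.01 ± 0.15 (adjusted p = 0.964), a value whose sign turned with the scaling of the libraries. KLF5 is also a known partner of YAP1 in protein complexes, which transcript counts do not read.

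KLF6 (ENSG00000067082, chromosome 10, 3775996 to 3785281, minus strand), a broadly expressed member linked to tissue injury and wound repair, was highest in ShNC. It had 394, 376, 389 and 379 CPM in YH, 354, 322, 360 and 343 CPM in H2O2 and 469, 437, 451 and 486 CPM in ShNC. The 3 groups did not overlap, and the spread within each was small. KLF6 fell in H2O2 (-0.42 ± 0.06, adjusted p = 1.58e-05) and in YH (-0.26 ± 0.06, adjusted p = 0.00209) against ShNC. It was higher in YH than in H2O2 by 0.16 ± 0.06 (adjusted p = 0.0331). That small difference was not called with library sizes alone (adjusted p = 0.204), with no filter (adjusted p = 0.12), with the shift of neighbouring genes removed (adjusted p = 0.0779), or without any of 5 single libraries, YH replicates 1 and 4 and H2O2 replicates 1, 2 and 4 (adjusted p from 0.0521 to 0.124). Without both libraries of high mitochondrial share it was called, at 0.15 (adjusted p = 0.000456).

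KLF10 (ENSG00000155090, chromosome 8, 102648779 to 102655902, minus strand), first found as a gene that TGF-beta induces early, was highest in H2O2. It had 205, 201, 286 and 210 CPM in YH, 336, 304, 314 and 352 CPM in H2O2 and 148, 140, 144 and 188 CPM in ShNC. The 3 groups did not overlap, with YH between the others. KLF10 was higher in H2O2 than in ShNC (1.08 ± 0.12, adjusted p = 1.94e-06), lower in YH than in H2O2 (-0.54 ± 0.11, adjusted p = 0.00147) and higher in YH than in ShNC (0.54 ± 0.12, adjusted p = 0.0021).

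IER2 (ENSG00000160888, chromosome 19, 13150415 to 13154908, plus strand) encodes a nuclear protein of the immediate-early response outside both zinc finger families. Its values are uncertain, since 30.8% of its exon bases lie in a gene annotated on the opposite strand and the use of strand in counting is not given in the sources used here. It had 46.8, 42.0, 36.3 and 50.1 CPM in YH, 88.9, 79.2, 83.6 and 78.6 CPM in H2O2 and 57.8, 52.7, 55.6 and 34.0 CPM in ShNC. Every H2O2 library lay above all others, and YH and ShNC overlapped. IER2 was higher in H2O2 than in ShNC (0.72 ± 0.14, adjusted p = 0.000577) and lower in YH than in H2O2 (-0.91 ± 0.14, adjusted p = 9.37e-05). The nearest 50 genes moved by 0.28 and -0.32 in these comparisons, and with that removed IER2 stood at 0.44 (adjusted p = 0.018) and -0.59 (adjusted p = 0.00357). In YH against ShNC it was not called (-0.19 ± 0.14, adjusted p = 0.33). Without ShNC replicate 4, the lowest ShNC library, it was lower in YH (-0.34, adjusted p = 0.00597), as it was without both libraries of high mitochondrial share (-0.26, adjusted p = 0.000488).

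Levels between genes were compared per kilobase (kb) of exon. EGR1 had the highest mean in every group, at 102 ± 42.9 CPM per kb in YH, 108 ± 5.99 in H2O2 and 128 ± 19.5 in ShNC. KLF6 and KLF10 came next and changed places: KLF6 stood at 62.6 ± 1.38, 56.2 ± 2.74 and 75.1 ± 3.45 CPM per kb in YH, H2O2 and ShNC, and KLF10 at 56.3 ± 10.1, 81.6 ± 5.42 and 38.7 ± 5.55. In YH the means of these 2 genes lay within the SD of KLF10, which YH replicate 3 widened. KLF6 and KLF10 stood at 63.3 and 71.4 CPM per kb in that library, of high mitochondrial share. KLF6 was the higher in YH replicates 1 (64.2 against 51.2), 2 (61.3 against 50.2) and 4 (61.7 against 52.5). IER2 followed in each group, at 14.3 ± 1.95, 26.9 ± 1.55 and 16.3 ± 3.54 CPM per kb. The other 5 members lay between 2.73 and 10.7 CPM per kb in YH, between 4.83 and 9.26 in H2O2 and between 0.753 and 5.19 in ShNC. KLF5 led them in YH, and KLF5, EGR2 and EGR3 did not differ beyond their spread in H2O2. EGR3 was the lowest member in every YH and ShNC library, but not in every H2O2 library.

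Within the EGR family, EGR1 made up 92.4% ± 0.411 of the summed per-kb level in YH, 91.4% ± 0.209 in H2O2 and 97.2% ± 0.327 in ShNC. EGR2 held 5.07%, 4.24% and 2.17%, and EGR3 held 2.45%, 4.09% and 0.568%. The summed EGR level was 110 ± 45.7 CPM per kb in YH, 118 ± 6.74 in H2O2 and 131 ± 19.9 in ShNC, so the minor members gained share while the sum did not separate the groups. In the KLF family KLF6 held 29.7% ± 2.15 in YH, 24.6% ± 0.55 in H2O2 and 43.0% ± 1.13 in ShNC, and KLF10 held 26.4% ± 2.41, 35.8% ± 1.7 and 22.1% ± 1.74. The KLF sum was 212 ± 17.5, 228 ± 8.43 and 175 ± 11.0 CPM per kb.

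**Figure D3:**
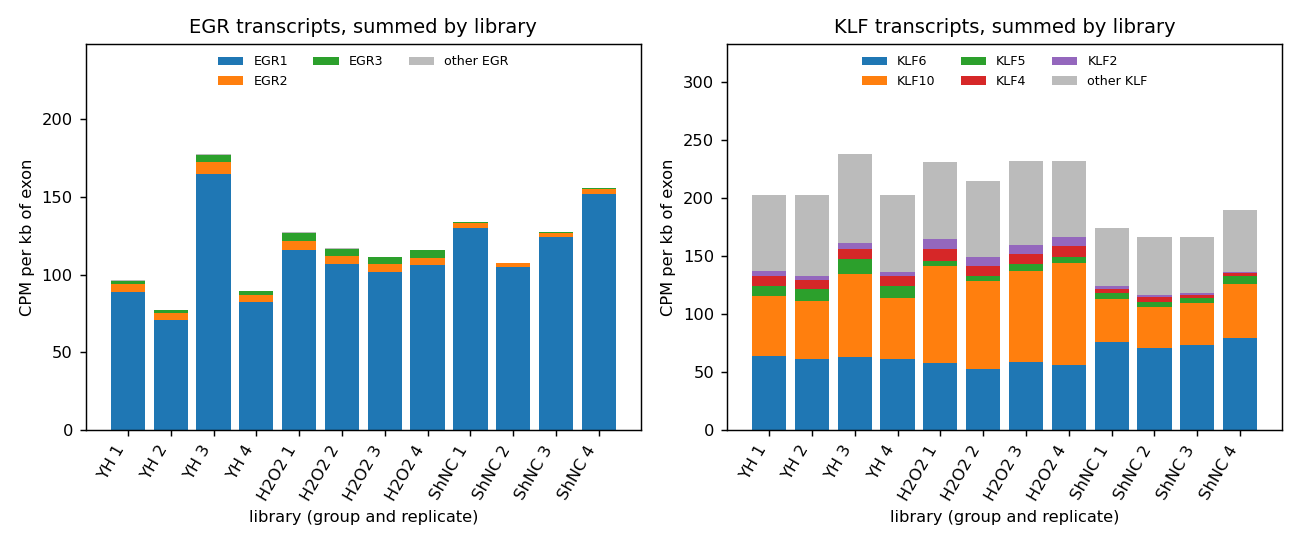
Summed CPM per kb of exon of the EGR genes (left) and KLF genes (right) in every library, in the order YH, H2O2, ShNC; colours are genes and grey is the rest of the family. EGR1 makes up over 91% of the EGR sum on average in each group, and KLF10 exceeds KLF6 in the H2O2 libraries.

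Libraries of a group also differed from each other in a shared way. YH replicate 3 was the highest YH library for 6 of 9 members, with EGR1 at 0.78, EGR2 at 0.56 and EGR3 at 0.83 log2 units above the YH mean, and IER2 at 0.26 below it. YH replicate 2 was the lowest for 7 members. In ShNC, EGR3 was 0.65 above the mean in replicate 1 and 0.69 below it in replicate 2, and ShNC replicate 4 was low for KLF4 and IER2 and high for KLF5. Among the H2O2 libraries the deviations ran from -0.203 to 0.254, and both extremes were of KLF5. YH replicate 3 and ShNC replicate 4 are the libraries with the high mitochondrial share, and its part in these values was not tested. KLF6 was the steadiest member, with a biological coefficient of variation of 6.91%.

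**Figure D4:**
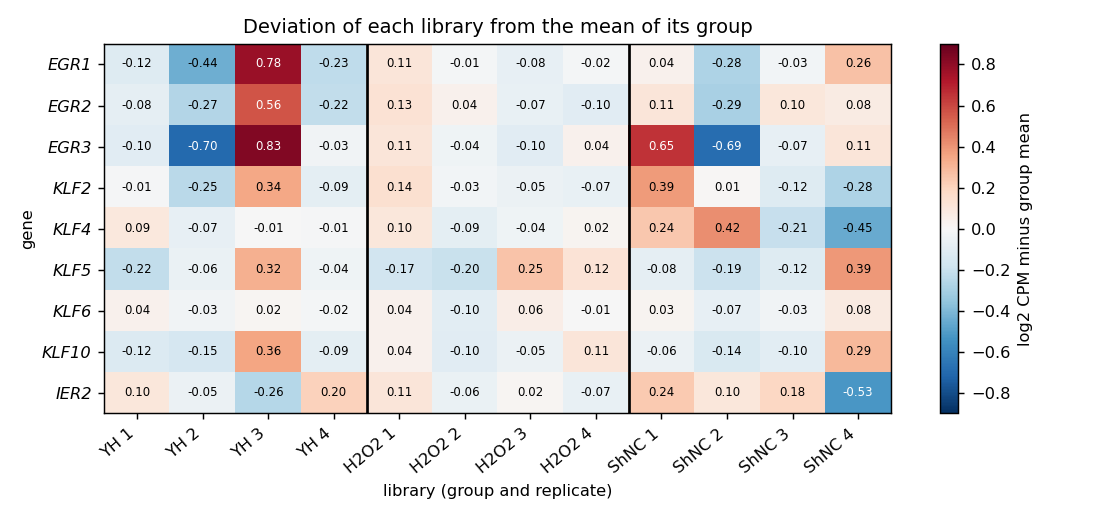
Deviation of log2 CPM from the mean of the library's own group, for 9 members (rows) in 12 libraries (columns, YH, H2O2 and ShNC from left to right); red is above and blue below the mean. The 3 EGR genes stand 0.56 to 0.83 above the mean in YH replicate 3, and the H2O2 columns are pale throughout.

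The members are short genes. Of 9, 7 span less than 10 kb, as do 18.9% of 14035 tested protein-coding genes, whose median span is 33245 bases. In GENCODE 29, EGR2 (107905 bases) and KLF5 (22567 bases) are the longer members. The EGR2 span rests on that annotation, which runs to 62919900. The 3 RefSeq start windows of EGR2, a minus-strand gene, lie between 62816317 and 62819417, so its span from those starts is far shorter.

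Partners and relatives of the members were read from lists chosen with earlier results of these data known. Of all tested genes 23.9% were called higher and 22.6% lower in H2O2 against ShNC. The shares were 22.0% and 21.0% in YH against H2O2, and 17.4% and 15.1% in YH against ShNC. No list was tested as a set, and counts near these shares are not results about a list. NAB1 and NAB2 encode corepressors that bind EGR proteins. NAB1 was higher in H2O2 than in ShNC (78.9 ± 6.26 against 55.7 ± 2.30 CPM; 0.50 ± 0.08, adjusted p = 0.000118) and lower in YH than in H2O2 (58.8 ± 6.62 CPM; -0.42 ± 0.08, adjusted p = 0.000633). With EGR4, a gene singled out after its values were seen and near the floor at 0.271, 0.792 and 0.0841 CPM in YH, H2O2 and ShNC, 2 of 3 listed genes were higher and 0 lower in H2O2 against ShNC. In YH against H2O2 0 were higher and 2 lower, and in YH against ShNC 1, NAB2, was higher and 0 lower. The medians of the list were 0.50, -0.42 and 0.38.

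Of 13 other KLF genes 9 were tested. In H2O2 against ShNC 5 were higher and 2 lower, with a median of 0.37, in YH against H2O2 4 were higher and 3 lower (median 0.19), and in YH against ShNC 6 were higher and 1 lower (median 0.29). KLF13 (0.81), KLF16 (0.72) and KLF11 (0.65), repressors or modulators of GC-box genes, rose in H2O2. KLF8, at 3.17, 1.39 and 4.61 CPM in YH, H2O2 and ShNC, fell in H2O2 against ShNC (-1.73 ± 0.16, adjusted p = 3.22e-07) and was higher in YH than in H2O2 (1.19 ± 0.16, adjusted p = 2.56e-05). KLF9, a glucocorticoid-responsive member, did likewise (-0.52 ± 0.09, adjusted p = 0.000193; 0.97 ± 0.09, adjusted p = 4.45e-07). Among 6 tested SP factors, the nearest relatives of KLF proteins, SP5, a Wnt target, rose in H2O2 (1.70 ± 0.23, adjusted p = 1.98e-05) and was lower in YH than in H2O2 (-1.76 ± 0.23, adjusted p = 1.88e-05). SP6 also rose in H2O2 (0.69 ± 0.14, adjusted p = 0.000891) and was lower in YH than in H2O2 (-1.88 ± 0.15, adjusted p = 1.1e-07). Unlike SP5, it was also lower in YH than in ShNC (-1.19 ± 0.16, adjusted p = 2.87e-05). Across that list 2 were higher and 0 lower in H2O2 against ShNC (median 0.18), 1 was higher and 2 lower in YH against H2O2 (median 0.01), and 2 were higher and 1 lower in YH against ShNC (median 0.10).

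The 40 other immediate-early genes had 22 higher and 7 lower in H2O2 against ShNC (median 0.46), 11 higher and 13 lower in YH against H2O2 (median -0.19), and 20 higher and 4 lower in YH against ShNC (median 0.43). NR4A3, an orphan nuclear receptor, rose to 2.94 ± 0.225 CPM in H2O2, against 0.403 ± 0.0944 CPM in ShNC (2.87 ± 0.26, adjusted p = 1.88e-07). SGK1, a kinase that regulates ion transport, had 135 ± 4.49 CPM in YH, 297 ± 10.8 CPM in H2O2 and 83.9 ± 6.85 CPM in ShNC, and GADD45B, a stress gene, had 37.4, 93.8 and 27.4 CPM. Both were called higher in H2O2 than in ShNC (1.82 and 1.78) and lower in YH than in H2O2 (-1.14 and -1.33). MCL1, an inhibitor of apoptosis, had 601, 395 and 694 CPM in YH, H2O2 and ShNC, lower in H2O2 than in ShNC (-0.81 ± 0.07, adjusted p = 1.44e-07) and higher in YH than in H2O2 (0.61 ± 0.07, adjusted p = 5.14e-06). The proto-oncogene MYC (0.95 ± 0.12, adjusted p = 1.62e-05) and the small Maf gene MAFF (0.98 ± 0.09, adjusted p = 4.75e-07) were higher in YH than in H2O2 and were not called in H2O2 against ShNC, as was KLF5. FOS, singled out after its values were seen, had 229 ± 35.5, 282 ± 32.8 and 260 ± 36.9 CPM in YH, H2O2 and ShNC and was called in no comparison.

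The cascades upstream were measured as transcripts, which say nothing of kinase activity. Of 15 genes of SRF, its cofactors and the ERK cascade 6 were higher and 2 lower in H2O2 against ShNC (median 0.00), 3 higher and 2 lower in YH against H2O2 (median 0.14), and 5 higher and 1 lower in YH against ShNC (median -0.01). The SRF partner ELK3 had 62.3 ± 5.83 CPM in YH, 116 ± 2.76 CPM in H2O2 and 78.7 ± 5.89 CPM in ShNC, while its relative ELK4 had 136 ± 13.7, 96.4 ± 4.42 and 140 ± 3.11 CPM. Of 7 genes of the ERK5 and MEF2 cascade, 6 were higher and 0 lower in H2O2 against ShNC (median 0.49), 1 higher and 3 lower in YH against H2O2 (median -0.15), and 5 higher and 0 lower in YH against ShNC (median 0.36). MEF2C had 4.81 ± 0.311, 6.02 ± 0.640 and 2.62 ± 0.203 CPM in YH, H2O2 and ShNC. MAP3K3, a kinase at the top of that cascade, had 37.2 ± 0.881, 47.7 ± 2.56 and 26.3 ± 1.70 CPM. Both genes ranked the groups in the same order of means as KLF2. MEF2D, of the same list, did not, with 64.2 ± 12.7, 42.6 ± 3.04 and 34.2 ± 2.74 CPM in YH, H2O2 and ShNC. It was higher in YH than in H2O2 (0.59 ± 0.11, adjusted p = 0.000471). A link of these genes to KLF2 was not tested. Of 8 ubiquitin ligase genes reported for KLF proteins 5 were higher and 0 lower in H2O2 against ShNC, 1 higher and 1 lower in YH against H2O2, and 4 higher and 0 lower in YH against ShNC, with medians of 0.30, -0.13 and 0.18. WWP1, which targets KLF2 and KLF5 protein, was the one higher in YH than in H2O2 (0.32 ± 0.07, adjusted p = 0.00219).

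List counts changed with the libraries used, as did the counts of all genes. With YH replicate 3 and ShNC replicate 4 left out, 11603 genes passed in H2O2 against ShNC, 11194 in YH against H2O2 and 9146 in YH against ShNC, in place of 8971, 8288 and 6265. The shares called higher and lower were then 29.8% and 29.6% in H2O2 against ShNC, 28.8% and 28.5% in YH against H2O2, and 24.0% and 22.8% in YH against ShNC. Over all lists together the genes called numbered 97, 92 and 87 in place of 79, 70 and 71. In H2O2 against ShNC, 5 SP factors were then higher, and 4 genes of the SRF and ERK list and 1 ubiquitin ligase lower. In YH against H2O2, 1 gene of the EGR partner list and 6 of the SRF and ERK list were then higher, and 5 of the ERK5 and MEF2 list and 4 ubiquitin ligases lower. In YH against ShNC, 7 ubiquitin ligases were then higher, and 2 other KLF genes, 8 other immediate-early genes and 3 of the SRF and ERK list lower. These changes are in the direction of the rise over all genes and are not results about the lists.

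With the shift of neighbouring genes removed, 8220, 7518 and 6407 genes were called in the same 3 comparisons. In H2O2 against ShNC, 4 genes of the SRF and ERK list were then lower. In YH against H2O2, 1 gene of the EGR partner list was lower, 2 SP factors were higher, and 0 ubiquitin ligases were higher and 3 lower. In YH against ShNC, 2 genes of the EGR partner list were higher, 2 other KLF genes and 2 other immediate-early genes were lower, 3 genes of the SRF and ERK list were higher and 4 lower, and 2 reported EGR1 targets, described next, were lower.

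Reported targets were read last, and their choice from the literature is not independent of cell type. Of 18 reported EGR1 targets 9 were higher and 3 lower in H2O2 against ShNC (14 and 3 without both libraries of high mitochondrial share), with a median of 0.38. In YH against H2O2 7 were higher and 8 lower (median -0.33), and in YH against ShNC 12 were higher and 1 lower (11 and 3 without them), with a median of 0.37. With all 12 libraries EGR1 itself was called in no comparison, and without both of those libraries it was called lower in YH than in H2O2 and than in ShNC, as given above. PDGFA, a growth factor gene on both target lists, had 12.1 ± 1.74 CPM in YH, 29.3 ± 0.943 CPM in H2O2 and 5.87 ± 0.547 CPM in ShNC. CCND1, the cyclin of early G1 and also on both lists, had 29.9 ± 3.06, 124 ± 3.81 and 19.7 ± 0.401 CPM. F3, tissue factor, was higher in YH than in H2O2 (130 ± 10.6 against 56.9 ± 1.86 CPM; 1.19 ± 0.08, adjusted p = 1.19e-08). Of 15 tested targets of KLF2, KLF4, KLF5, KLF6 or KLF10, 10 were higher and 2 lower in H2O2 against ShNC (median 0.91), 4 higher and 8 lower in YH against H2O2 (median -0.22), and 8 higher and 4 lower in YH against ShNC (median 0.44). ENG, a TGF-beta co-receptor that KLF6 activates, had 2.16 ± 0.502, 5.04 ± 0.592 and 1.80 ± 0.245 CPM in YH, H2O2 and ShNC. CDH1, which encodes E-cadherin and which KLF4 activates, had 3.11 ± 1.09, 1.21 ± 0.141 and 5.81 ± 0.813 CPM. COL1A1, a collagen gene on this list, had 10.2 ± 0.755, 26.6 ± 1.91 and 10.1 ± 1.80 CPM, and it is also 1 of 6 fibroblast and pericyte markers, whose sum was 143 to 172, 236 to 255 and 110 to 113 CPM in YH, H2O2 and ShNC. LUM made up most of that sum, at 149, 217 and 98.8 CPM. PDGFRB stood at 1.54, 1.27 and 2.10 CPM, PDGFRA was at or below 0.127 CPM and COL1A2 at 0 in every library. The part of such cells in these values was not tested.

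**Figure D5:**
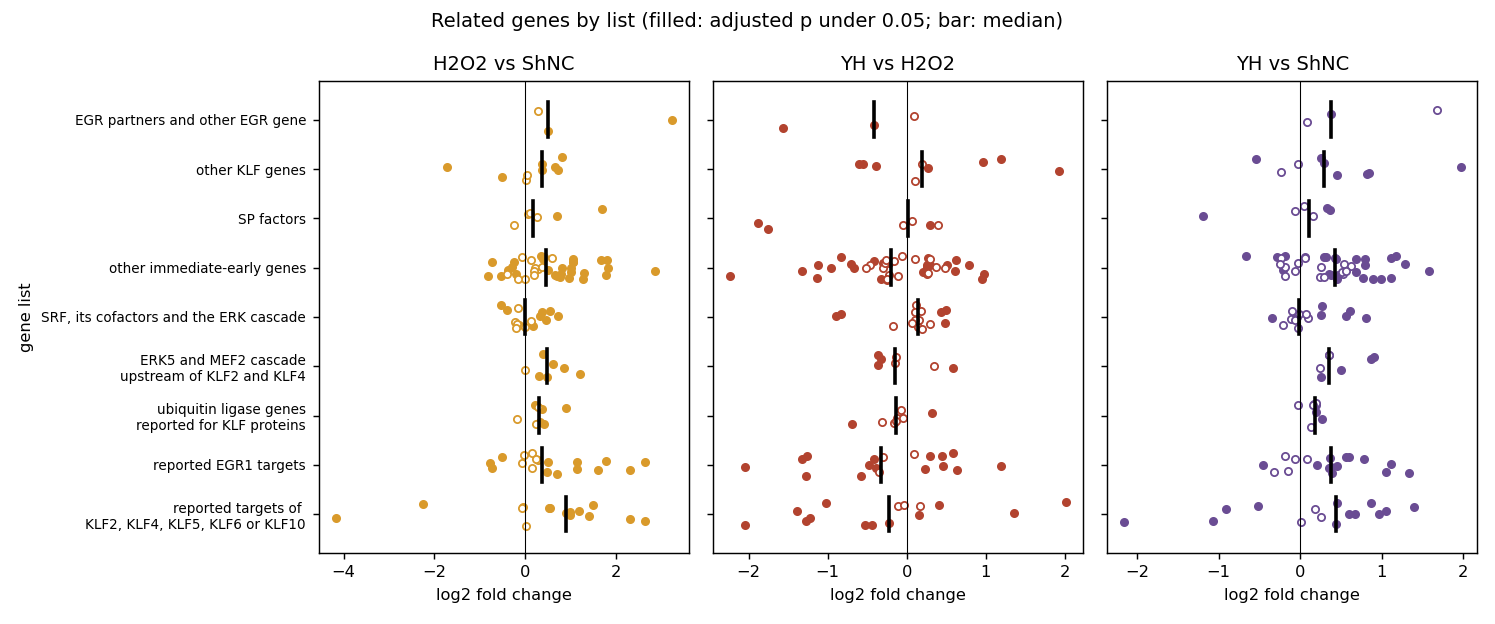
Log2 fold changes of the genes of 9 related lists in the 3 comparisons; filled points passed an adjusted p of 0.05 and black bars are medians. The ERK5 and MEF2 list has a median of 0.49 in H2O2 against ShNC and -0.15 in YH against H2O2.

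Genes whose log2 CPM followed each member most closely were taken from all tested genes averaging 5 CPM or more, by Pearson correlation over the 12 libraries, which share groups and depth; r is a description. EGR1 was followed by YBX2 (0.955), EGR2 by GYPC (0.969) and EGR3 by MID1 (0.981) and BHLHE40 (0.970), which is also a listed immediate-early gene. Among the KLF genes, KLF2 was followed by CHPF (0.993), KLF4 by SLC2A5 (0.981), KLF5 by CD55 (0.988), KLF6 by SLC17A3 (0.976) and KLF10 by MAU2 (0.988). IER2 was followed by COL7A1 (0.982). Each member had a different closest gene.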

How the data were processed

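Polyadenylated RNA of 12 HK-2 libraries was sequenced as paired ends, per the labels' protocols. The authors deposited 1 table of raw counts per library, whole numbers per Ensembl gene that were not scaled. The submitters' processing notes list the GRCh38 (hg38) genome and the tools DESeq2, HISAT2, Subread and featureCounts. For versions, annotation release and strand setting, nothing is given in the sources used here, so reads of a gene and of one overlapping it cannot be separated.

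Groups were taken from sample titles. Genes were filtered with filterByExpr, scaled by TMM and tested with edgeR 4.0.16 under R 4.3.3, as a robust quasi-likelihood fit over all 12 libraries with 1 mean per group. Members were also compared by an exact permutation test of log2 CPM with no prior count. A prior count of 2 was used for correlations and for the share of all genes whose groups did not overlap. DESeq2 1.42.0 and other scalings, filters and sets of libraries were alternatives. The fit was tested on simulated counts, with 100 genes changed by 1 and 100 by 0.5 log2 units in each comparison. It recovered 90% to 96% of changes of 1 and 47% to 60% of changes of 0.5, so small differences can be missed. Far fewer genes changed there than were called here, and no library deviated as YH replicate 3 and ShNC replicate 4 did. Symbols came from the table of gene names for 40555 identifiers, and positions from GENCODE 29 (GRCh38) for 39306. Per-kb levels used the union of exons. Between replicates the chi-square per degree of freedom was 2.85 to 6.39, above sampling noise, in pairs without YH replicate 3 or ShNC replicate 4. Pairs with ShNC replicate 4 stood at 138 to 159 and pairs with YH replicate 3 at 95.8 to 118. Each library counted as 1 replicate, and these values do not show whether cultures were separate.

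All members were named. From each list the text drew on up to 3 called genes with the largest rise and fall in H2O2 against ShNC and up to 2 in YH against H2O2, with a mean of at least 1 CPM. Members and lists were chosen with earlier results of these data known.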

Additional observations from a re-analysis of the deposited data

Results flagged for a closer look

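In each group of 4 libraries the gap of the highest or lowest library to its neighbour was divided by the range of the group, and the ratio was compared with Dixon's 95% critical value. Of 27 groups (9 members in 3 groups) 3 passed, and chance flags about 1 in 20 groups. EGR2 in ShNC replicate 2 lay below the other ShNC libraries, with a ratio of 0.902 (8.48 CPM against 11.0 to 11.2 CPM). KLF5 in ShNC replicate 4 lay above the others, with a ratio of 0.838 (26.1 CPM against 17.5 to 18.9 CPM). KLF10 in YH replicate 3 lay above the others, with a ratio of 0.895 (286 CPM against 201 to 210 CPM). The last 2 libraries are those with over 10% mitochondrial counts.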

How the results depend on the processing

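Of 567 values of single members under alternatives, 533 kept their direction and their side of the threshold, 15 kept the direction and were no longer called, 6 became called and 13 changed sign, each of them a difference that was not called. KLF5 in H2O2 against ShNC was -0.0022 with RLE size factors, -0.0015 with mitochondrially encoded genes removed, -0.0014 in DESeq2, -0.0872 with the regional shift removed, and -0.076 to 0.1515 with single replicates left out. EGR1 in YH against H2O2 ranged from -0.4163 to 0.0571 with single replicates left out. EGR2 in YH against H2O2 was -0.1141 without both libraries of high mitochondrial share and ranged from -0.1125 to 0.2008 with single replicates left out. Members higher in YH than in H2O2 numbered 1 in place of 2 with library sizes alone, with no filter and with the regional shift removed, and 1 to 2 with single replicates left out, since KLF6 was lost. Members lower in YH than in ShNC numbered 3 in place of 1 without both libraries of high mitochondrial share, and 1 to 2 with single replicates left out. The cause was not tested.

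Deviations of YH replicate 3 and ShNC replicate 4 from their group means correlated at 0.389 over the tested genes. Deviations of same-numbered libraries correlated at -0.222 to 0.103, and both extremes were of YH and ShNC, the groups that hold those deviating libraries. In the comparisons with H2O2 they correlated at -0.0307 to 0.0145. These correlations cannot show whether samples were handled in sets by replicate number. With the number as a replicate block, 8536, 7798 and 5731 genes were called in H2O2 against ShNC, YH against H2O2 and YH against ShNC, and the counts of members called in each direction were the same as without it. Depth limits EGR3 most, at 94 counts in its lowest library.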
